A study of Mus musculus with 4 samples.

Results

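The transcription factor p53 and 8 of its direct targets were followed in colonic epithelium of mice with colitis. The 9 genes, *Trp53*, *Mdm2*, *Cdkn1a*, *Ccng1*, *Aen*, *Plk2*, *Phlda3*, *Trp53inp1* and *Zmat3*, were taken by symbol, and all 9 were found once each among the 16015 genes listed. The study asked how loss of the clock factor BMAL1 in the intestinal epithelium alters gene expression during colitis. RNA was sequenced from 2 control mice, which carried *Bmal1* fl/fl without Cre and are labelled WT, and from 2 mice labelled *Bmal1* cKO, which carried *Villin-CreERT2;Bmal1* fl/fl. All animals were on a C57BL/6 background, were 2 to 4 months old and received 3% dextran sodium sulfate (DSS), a polymer that injures the colonic lining, in drinking water for 5 days and then plain water for 2 days, with collection at day 7. Cre was activated by intraperitoneal tamoxifen on 5 consecutive days, and whether the control mice of these libraries were given tamoxifen is not given in the sources used here. The Villin promoter directs Cre to intestinal epithelial cells, so other cells in the crypt preparations would keep intact alleles, which was not measured here.

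p53 is kept scarce in unstressed cells because MDM2 marks it for degradation, and it accumulates after DNA damage and other stress, mostly through slower degradation of the protein. It then binds pairs of short half-sites near its targets, which halt the cell cycle, start apoptosis, support repair or, as with *Mdm2*, close a feedback loop on p53 itself. In the gut, p53 is best known for the death and arrest of crypt cells after irradiation. RNA levels of *Trp53* do not measure the amount or activity of the protein.

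The start sites of 7 of the 9 genes had a reference window of 250 bases before to 50 bases after the start (RefSeq, GRCm38.p6), giving 9 windows. Windows for *Trp53inp1* and *Zmat3* were not used here. The windows were searched on both strands for the E-box CACGTG, a motif bound by BMAL1 with CLOCK, and for the p53 half-site. The E-box was in 2 of the 9 windows, against 7.15% of all 32851 windows, and the p53 half-site in 6 of 9, against 8.36%. Both motifs read the same on either strand, and they do not share letters in these windows. A subset of the windows is printed 5′ to 3′ with matches in capitals, chosen because they hold the E-boxes, the paired p53 half-sites and the start of the target with the highest level in the libraries labelled cKO.
Trp53 window, chr11:69580109-69580408, plus strand: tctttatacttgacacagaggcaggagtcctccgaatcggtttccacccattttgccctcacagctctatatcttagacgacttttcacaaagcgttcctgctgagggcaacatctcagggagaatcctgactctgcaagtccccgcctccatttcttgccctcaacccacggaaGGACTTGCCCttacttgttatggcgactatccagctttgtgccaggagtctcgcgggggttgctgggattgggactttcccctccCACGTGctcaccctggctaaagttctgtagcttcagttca
Cdkn1a window, chr17:29090729-29091028, plus strand: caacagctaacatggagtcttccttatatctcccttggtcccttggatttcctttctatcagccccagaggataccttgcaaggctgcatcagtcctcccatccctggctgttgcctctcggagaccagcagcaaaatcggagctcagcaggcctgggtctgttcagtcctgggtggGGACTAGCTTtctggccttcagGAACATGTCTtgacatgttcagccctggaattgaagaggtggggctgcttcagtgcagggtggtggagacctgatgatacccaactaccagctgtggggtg
Aen window, chr7:78895808-78896107, plus strand: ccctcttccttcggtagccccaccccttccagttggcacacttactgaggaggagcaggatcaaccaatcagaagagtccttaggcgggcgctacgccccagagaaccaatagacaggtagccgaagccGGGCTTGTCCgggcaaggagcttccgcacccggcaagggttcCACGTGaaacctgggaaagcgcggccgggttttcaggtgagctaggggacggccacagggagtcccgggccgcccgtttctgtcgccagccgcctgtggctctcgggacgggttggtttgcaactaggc
Ccng1 window, chr11:40755237-40755536, minus strand: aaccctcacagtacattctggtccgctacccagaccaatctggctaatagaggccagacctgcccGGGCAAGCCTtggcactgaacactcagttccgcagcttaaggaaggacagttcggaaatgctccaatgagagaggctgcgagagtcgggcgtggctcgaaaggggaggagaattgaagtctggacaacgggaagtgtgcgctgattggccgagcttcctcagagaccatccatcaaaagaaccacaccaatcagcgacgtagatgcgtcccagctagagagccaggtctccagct

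The *Trp53* window held an E-box that begins 10 bases after the start and a p53 half-site 75 bases before it. The *Cdkn1a* window held 2 half-sites, which begin 73 and 51 bases before the start, and it was the 1 window of the 9 in which they lay at most 13 bases apart, as a full site does. Full sites were in 0.0731% of all windows. In the *Aen* window shown, the E-box lay 79 bases and the half-site 121 bases before the start of that window. The other *Aen* window overlaps it and belongs to another start. There the same half-site begins 10 bases after the start, and the E-box is outside the window. The windows of *Plk2* and *Phlda3* and the other window of *Cdkn1a* held neither motif in these letters. A match describes the letters and does not show binding.

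The libraries held 10312791 to 14156639 reads on the listed genes, fewest in the second library labelled cKO. *Arntl*, the gene for BMAL1 (chromosome 7, 113207465 to 113314126, GRCm38), had 358 and 342 normalized counts in the control libraries and 342 and 289 in those labelled cKO, a log2 fold change of -0.16 (95% interval -0.52 to 0.21, adjusted p = 0.389, limma). With the correction for GC content and length given further on, the value was -0.40 (95% interval -0.75 to -0.04, adjusted p = 0.0771, limma). With GC content over all transcripts it was -0.45 (adjusted p = 0.0598, limma). Counts over the whole gene thus did not clearly show the deletion in these libraries. An allele that lacks an exon can still give reads on the others, so the groups are named by their labels throughout. Marker genes of other cells moved with the labels. The 12 leukocyte markers summed to 11120 and 19275 normalized counts in the control libraries and to 1233 and 1358 in those labelled cKO, with 9 of 12 lower. The neutrophil genes *S100a8* and *S100a9* carried most of the sum in the second control library, and without them the other 10 summed to 8600.3 and 4022.6 in control and to 749.8 and 1123.2 in the libraries labelled cKO, which turns the order of the 2 control libraries but not that of the groups. The 10 markers of stroma and endothelium summed to 15292 and 3289 against 461 and 520.4, with 9 of 10 lower, and no marker was at 0 in any library. The 12 colonic epithelial markers summed to 187475 and 254282 against 162594 and 186095, of which *Muc2* alone gave 62753 and 101737 against 24129 and 37690. Of these 12, 3 were lower (*Cdx2*, *Muc2* and *Chga*) and 3 were higher (*Krt20*, *Slc26a3* and *Lgr5*), so the sum hides opposite moves. Among all tested genes, 27.7% were lower and 29.0% higher, which is the background of all 3 marker lists. The part of these cells in the p53 results was not tested, and in bulk RNA fewer cells of a type and less RNA per cell cannot be told apart.

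Of the 9 genes, 5 were lower in the libraries labelled cKO (*Trp53*, *Cdkn1a*, *Aen*, *Plk2* and *Phlda3*), 2 were higher (*Ccng1* and *Trp53inp1*) and 2, *Mdm2* and *Zmat3*, did not pass an adjusted p under 0.05. Among all 13983 genes tested, 27.7% were lower and 29.0% were higher at that threshold, and the median log2 fold change was -0.04 against -0.92 over the 9 genes. Lower groups without overlap were found for the same 5 genes, and the other 4 were higher without overlap, against 41.7% and 40.3% of all tested genes.

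*Trp53* (chromosome 11, 69580359 to 69591873, plus strand) encodes p53. It had 1089 and 1150.3 normalized counts in the control libraries and 331 and 387 in those labelled cKO. Both controls lay far above both other libraries, and the means differed 3.12-fold (1119.6 ± 43.4 against 359 ± 39.2, SD, n = 2). The log2 fold change was -1.64 (95% interval -1.95 to -1.34, adjusted p = 0.000565, limma). Its exons overlap no other annotated gene.

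**Figure D1:**
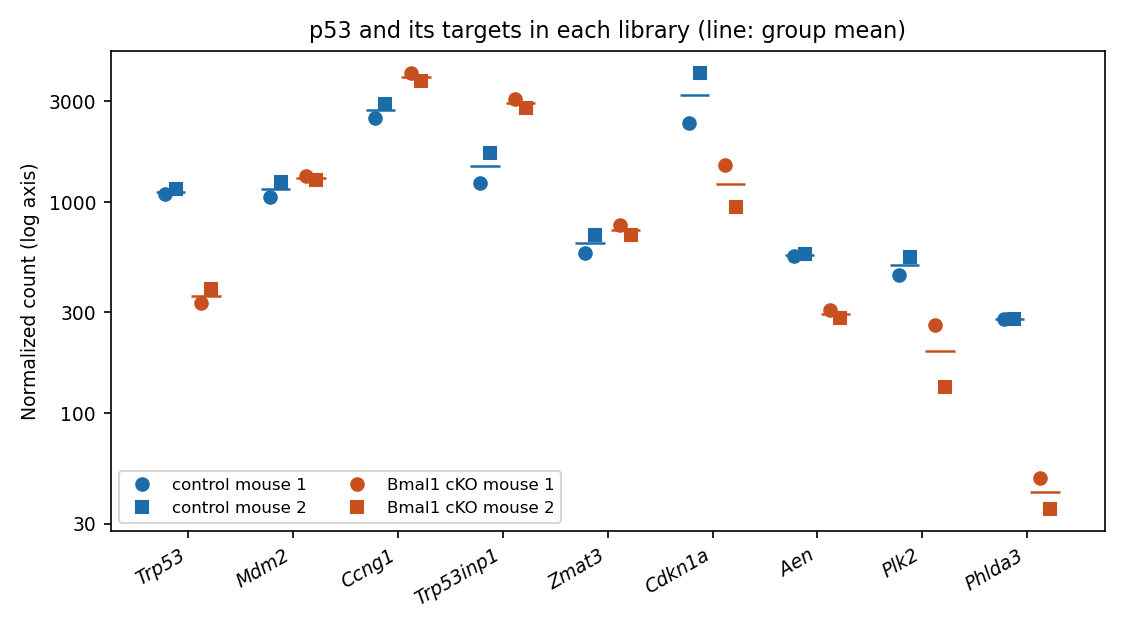
Normalized counts (log axis) of the 9 genes in each of the 4 libraries, with circles for mouse 1, squares for mouse 2 and a line at each group mean. *Trp53*, *Cdkn1a*, *Aen*, *Plk2* and *Phlda3* are lower in both libraries labelled cKO, from 35.1 counts for *Phlda3* upwards, while *Ccng1* and *Trp53inp1* are higher in both.

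The inhibitors of growth came next. *Cdkn1a*, which encodes the cyclin-dependent kinase inhibitor p21 (chromosome 17, 29090976 to 29100727, plus strand), had 2374 and 4072 normalized counts in control and 1489 and 945 in the libraries labelled cKO. The control mice differed from each other by more than the first control differed from the nearer cKO library, and the groups did not overlap. Its log2 fold change was -1.39 (95% interval -2.19 to -0.58, adjusted p = 0.0152, limma). The call was lost without the second control library (adjusted p = 0.0858) and without the second library labelled cKO (adjusted p = 0.117). On the opposite strand, 273 bases (7.7%) of its exons overlap an unlisted gene, and the strand setting of the counting is not given in the sources used here. *Plk2*, a polo-like kinase that acts in the cell cycle and stress response (chromosome 13, 110395046 to 110400844, plus strand), had 454 and 549.7 counts in control and 262 and 134 in the libraries labelled cKO. That is a log2 fold change of -1.41 (95% interval -2.24 to -0.58, adjusted p = 0.0162, limma), and the call was lost without the first (log2 -1.55, adjusted p = 0.0849) or the second control library (log2 -1.27, adjusted p = 0.119). Without the first library labelled cKO the log2 fold change of *Plk2* was -1.89, and without the second it was -0.93, both still called. *Ccng1*, which encodes cyclin G1 and recruits a phosphatase to MDM2 (chromosome 11, 40748552 to 40755311, minus strand), went the other way, with 2502 and 2919.8 counts in control and 4097 and 3752 in the libraries labelled cKO. Its log2 fold change was 0.54 (95% interval 0.25 to 0.82, adjusted p = 0.0118, limma). The call of *Ccng1* was lost without the first control library (log2 0.43). It was also lost without the first (log2 0.47) or the second library labelled cKO (log2 0.6).

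Among the death and survival genes, *Phlda3* showed the greatest difference of the 9 as deposited. Once corrected for GC content and length, *Plk2* and *Trp53* differed by more than *Phlda3*. *Phlda3* encodes a pleckstrin homology domain protein that restrains AKT (chromosome 1, 135766119 to 135769136, plus strand). It had 279.6 and 279.5 normalized counts in control and 49.4 and 35.1 in the libraries labelled cKO, the last from 26 reads. The log2 fold change was -2.72 (95% interval -3.35 to -2.08, adjusted p = 0.000876, limma). *Aen*, a nuclease that degrades DNA during apoptosis (chromosome 7, 78895854 to 78911209, plus strand), had 556 and 566 counts in control and 309 and 284 in the libraries labelled cKO. The 2 control libraries were close together and far above the others, and the log2 fold change was -0.92 (95% interval -1.22 to -0.62, adjusted p = 0.00222, limma). *Trp53inp1*, a nuclear protein that promotes p53 phosphorylation and cell death (chromosome 4, 11156431 to 11174379, plus strand), rose from 1233 and 1714 counts in control to 3081 and 2772 in the libraries labelled cKO. Its log2 fold change was 1.01 (95% interval 0.57 to 1.44, adjusted p = 0.00562, limma). The call was lost without the first or the second library labelled cKO, where the log2 fold change was 0.93 and 1.08.

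The feedback inhibitor *Mdm2*, the ubiquitin ligase that degrades p53 (chromosome 10, 117688875 to 117710758, minus strand), had 1053.5 and 1239 normalized counts in control and 1327 and 1276 in the libraries labelled cKO. The groups just missed overlapping, and the difference did not pass (log2 0.19, 95% interval -0.10 to 0.47, adjusted p = 0.203, limma). *Zmat3*, a zinc finger protein that binds RNA (chromosome 3, 32334792 to 32366014, minus strand), had 575 and 698 counts in control and 779 and 702 in the libraries labelled cKO, with a log2 difference of 0.22 (95% interval -0.12 to 0.56, adjusted p = 0.2098, limma). Both intervals hold 0. An increase of the size seen for the weakest called member, *Ccng1*, lies above the upper bound for *Mdm2* and inside that for *Zmat3*. Without the first or the second control library, the log2 difference was 0.07 and 0.30 for *Mdm2* and 0.08 and 0.36 for *Zmat3*. As deposited, *Trp53* RNA was thus lower while its targets were split between lower, higher and not called, and the 2 higher calls did not hold once GC content and length were corrected for, as given further on.

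Per kilobase of exon, which allows levels to be set side by side between genes, *Cdkn1a* was highest in control (907 normalized counts per kilobase), and it overlapped *Ccng1* (772). *Trp53* followed at 277, then *Trp53inp1* (228), which overlapped *Mdm2* (226), then *Phlda3* (179), *Plk2* (112), *Aen* (96.7) and *Zmat3* (55.7). In the libraries labelled cKO the order was *Ccng1* (1118), *Trp53inp1* (452), *Cdkn1a* (343), *Mdm2* (256), *Trp53* (88.7), *Zmat3* (64.7), *Aen* (51.1), *Plk2* (44.1) and *Phlda3* (27.1), with *Plk2* overlapping both its neighbours. By level, *Trp53* thus stood at rank 3 of the 9 in control and at rank 5 in the libraries labelled cKO. These levels are not corrected for GC content, which fold change followed across all genes, as given below. How far the change of ranks depends on it was not tested. All other neighbours in either order did not overlap.

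Fold change followed the GC content of the transcript across the whole table. Spearman's rho between the log2 fold change and the GC content of the longest transcript was -0.61 across 13975 genes, which are not independent replicates. When genes were ranked by GC content and cut into 10 classes of like size, the median log2 fold change ran from 1.13 at the AT-rich end to -1.35 at the GC-rich end. The 9 genes span that range, from 38.8% GC for *Trp53inp1* and 40.8% for *Ccng1*, both higher, to 62.6% for *Phlda3*, the lowest by fold. *Trp53* (53.3%) and *Cdkn1a* (54.4%) fell in a class whose median was -0.55, and *Aen* (51.6%) in one whose median was -0.32. *Plk2* (48.0%) was low in a class with a median of 0.17, and *Mdm2* (46.2%) and *Zmat3* (47.6%) lay in a class with a median of 0.37.

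**Figure D2:**
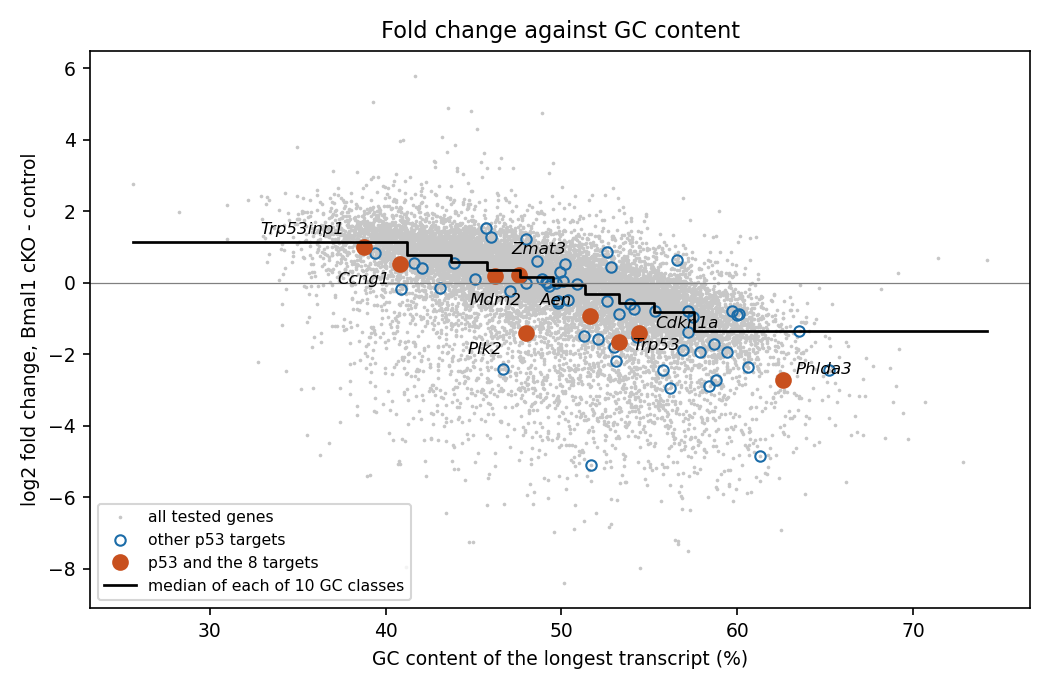
Log2 fold change of each tested gene against the GC content of its longest transcript, with the 9 genes in filled circles, the other p53 targets in open circles and a step line at the median of each of the 10 classes of GC content. All 9 genes lie below the step for their GC content, *Trp53inp1* by least (1.01 against a median of 1.13). The step is a median, so as many genes of each class lie below it as above.

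Each library was therefore also corrected by loess for GC content and exon length, and 17.6% of 13975 genes were then lower and 18.4% higher. After it, 4 of the 9 genes were lower, 0 were higher and 5 were not called. All 9 log2 fold changes were negative, with a median of -0.75. The median of all genes was then -0.01, so a negative sign alone is common. *Trp53* stayed lower at -1.23 (95% interval -1.55 to -0.91, adjusted p = 0.00413, limma), as did *Plk2* at -1.64 (adjusted p = 0.018), *Aen* at -0.75 (adjusted p = 0.00862) and *Phlda3* at -0.95 (adjusted p = 0.0311). *Cdkn1a* was at -0.84 and no longer passed (adjusted p = 0.0847). *Ccng1* changed sign to -0.39 (adjusted p = 0.0519), *Trp53inp1* to -0.15 (adjusted p = 0.548), *Mdm2* to -0.25 (adjusted p = 0.124) and *Zmat3* to -0.07 (adjusted p = 0.682). When GC content was taken over all transcripts of a gene instead of the longest, *Ccng1* was lower at -0.62 (adjusted p = 0.0166), so that 5 genes were lower, and *Phlda3* was at -1.28 (adjusted p = 0.0161). The direction of *Ccng1* and *Trp53inp1* thus depended on the correction, and that of *Trp53*, *Cdkn1a*, *Aen*, *Plk2* and *Phlda3* was lower with and without it.

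**Figure D3:**
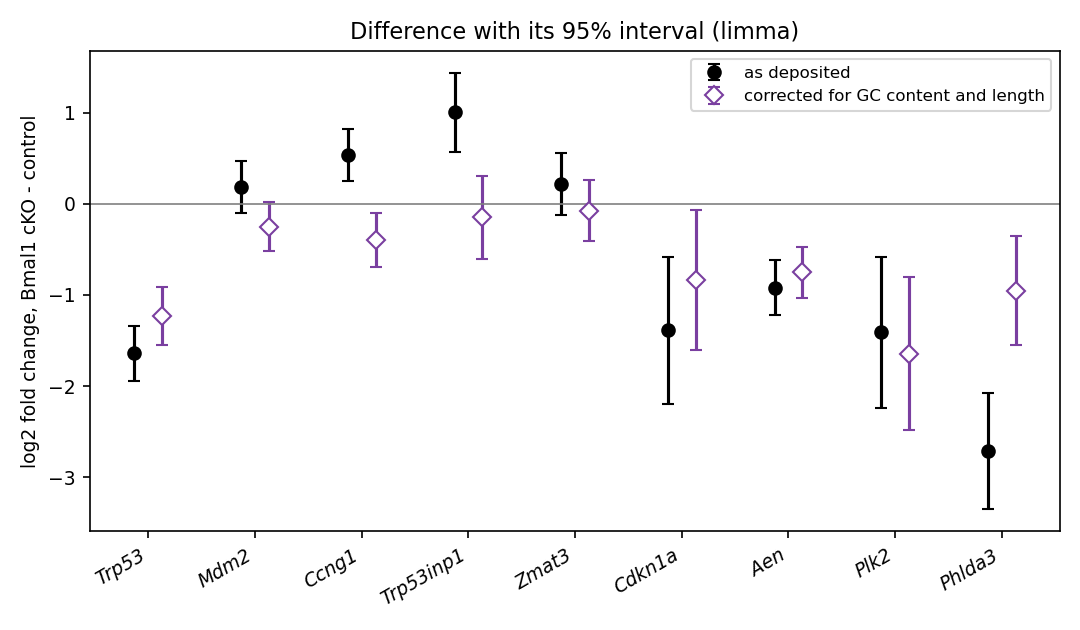
Log2 fold change (cKO minus control) of the 9 genes with 95% intervals from limma, as deposited (filled circles) and corrected for GC content and exon length (open diamonds). *Trp53* stays below 0 in both, at -1.64 and -1.23, while *Ccng1* and *Trp53inp1* move from above to below 0.

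A wider set of 61 p53 targets outside the 9 was taken by role, and 59 were tested. Of these, 27 were lower and 8 were higher, where 27.7% and 29.0% of all tested genes were (corrected 16 and 9, against 17.6% and 18.4%). With GC content over all transcripts 14 were lower and 7 higher, against 16.8% and 17.1% of all genes. Over the 59, the median log2 fold change was -0.55 (corrected -0.27). The counts by list have these same shares of all genes as their background. Cell cycle arrest targets were lower for 5 of 8 tested and higher for 0 (corrected 3 and 1). *Plk3*, a polo-like kinase of the stress response, had 511 and 753 normalized counts in control and 114 and 75.7 in the libraries labelled cKO, a log2 fold change of -2.73 (adjusted p = 0.00116, limma; corrected -1.60). *Psrc1*, which binds microtubules at the spindle, was at -1.57 (adjusted p = 0.00441; corrected -1.31). *Sfn*, encoding the 14-3-3 sigma protein, is outside the naming rule and was chosen after its values were seen, because it was lower at -0.80 and higher at 0.51 after the correction.

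Of 14 apoptosis targets, 4 were lower, 3 were higher and 7 were not called (corrected 2 lower and 5 higher), beside 27.7% lower and 29.0% higher among all genes, so that the uncorrected counts lay near the background. *Bax*, which opens the mitochondrial outer membrane, had 791 and 827 normalized counts in control and 338 and 303 in the libraries labelled cKO, a log2 fold change of -1.33 (adjusted p = 0.000763, limma). Its transcript is 63.5% GC, and after the correction *Bax* was higher at 0.59 (adjusted p = 0.0135), or at -0.09 and not called (adjusted p = 0.538) with GC content over all transcripts, so its direction depends on the correction. *Bbc3*, which encodes PUMA, a trigger of BAX, was lower at -2.43 (adjusted p = 0.00523; corrected -0.27, adjusted p = 0.622). *Pmaip1*, which encodes the related trigger NOXA, was at 0.41 (adjusted p = 0.238), and the death receptor gene *Fas* at 0.55 (adjusted p = 0.069). *Perp*, a junction protein, rose from 3283 and 3464 to 7994 and 7803 counts, a log2 fold change of 1.23 (adjusted p = 0.000585; corrected 1.05, adjusted p = 0.00334). *Apaf1*, the scaffold of the apoptosome, was higher at 1.27 (adjusted p = 0.00196; corrected 0.79). *Siva1*, a death-inducing protein, was lower at -1.47 (adjusted p = 0.00606; corrected -1.30), and *Pidd1*, which assembles a caspase-2 platform, at -1.37 (adjusted p = 0.00446; corrected -0.46, adjusted p = 0.126).

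Of 7 repair targets, 0 were lower and 3 were higher (corrected 1 and 1). *Fancc*, of the Fanconi anaemia pathway, was at 0.87 (adjusted p = 0.012; corrected 1.17), and *Rrm2b*, a ribonucleotide reductase subunit, at 0.84 (adjusted p = 0.0292; corrected -0.27, adjusted p = 0.4). Of 14 metabolism and autophagy targets, 9 were lower and 1 was higher (corrected 2 and 1). *Ephx1*, an epoxide hydrolase, had 422 and 489.6 normalized counts in control and 94.6 and 103 in the libraries labelled cKO, a log2 fold change of -2.19 (adjusted p = 0.00059, limma; corrected -1.79). *Ddit4*, an inhibitor of mTORC1, was at -1.93 (adjusted p = 0.00304; corrected -0.89, adjusted p = 0.0522). The 1 higher gene, *Pank1*, makes the first step of coenzyme A synthesis, and it rose by 1.52 (adjusted p = 0.000682; corrected 1.01).

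Of the 16 targets for feedback and other roles, 9 were lower and 1 was higher (corrected 8 and 1). *Gdf15*, a secreted stress cytokine, had 208 and 228 normalized counts in control and 8.23 and 5.41 in the libraries labelled cKO, from 8 and 4 reads. Its log2 fold change was -4.83 (95% interval -5.77 to -3.89, adjusted p = 0.000606, limma, and corrected -3.28, adjusted p = 0.00455). *Gdf15* passed the filter on the mean and the minimum for naming only through its control counts. The size of its difference thus rests on few reads. *Ptp4a3*, a phosphatase, was at -2.89 (adjusted p = 0.000533; corrected -1.77), and the thiamine transporter gene *Slc19a2* was the 1 higher, at 0.61 (adjusted p = 0.0125; corrected 0.44). *Ppm1d*, which encodes the phosphatase WIP1 that switches the p53 response off, was at 0.02 (adjusted p = 0.934).

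**Figure D4:**
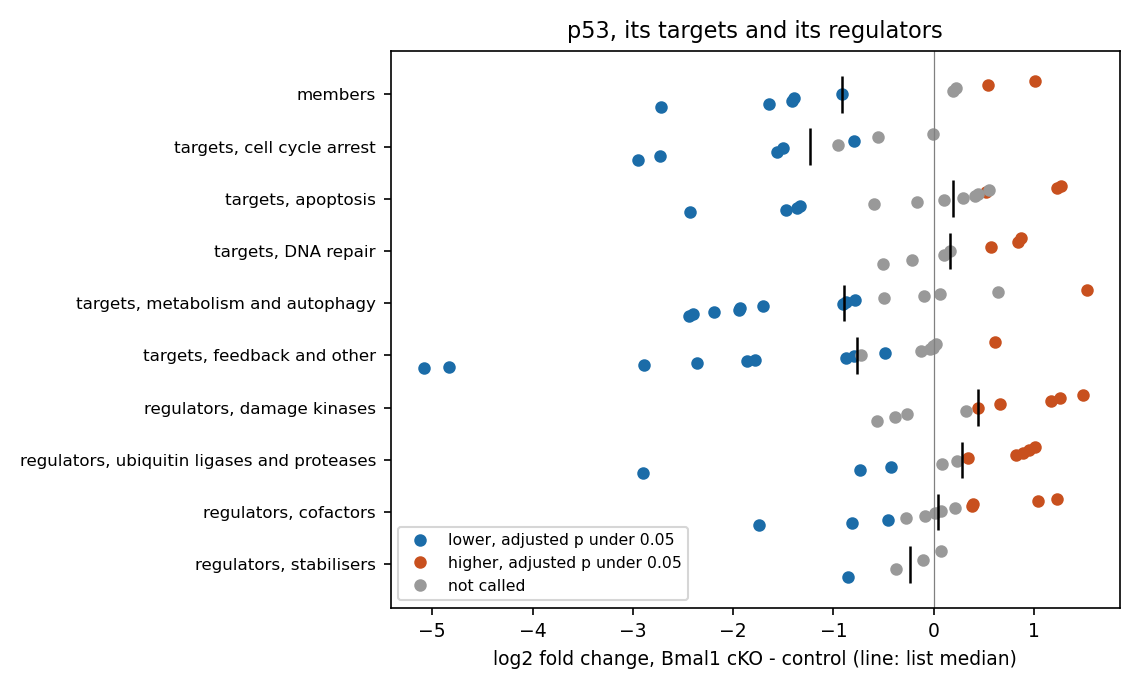
Log2 fold changes (cKO minus control) of the 9 genes, the other p53 targets and the p53 regulators by list, coloured by the call at an adjusted p under 0.05, with a line at each list's median. Cell cycle arrest targets (median -1.23) and metabolism targets (median -0.89) lie mostly to the left, and the damage kinases (median 0.44) mostly to the right. With the correction these medians are -0.75, -0.35 and 0.05.

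Of 35 regulators of p53 tested, 7 were lower and 14 higher, beside 27.7% and 29.0% of all genes (corrected 4 and 9, beside 17.6% and 18.4%). With GC content over all transcripts 5 were lower and 4 higher, beside 16.8% and 17.1%. The damage kinases that phosphorylate p53 were higher for 5 of 9 and lower for 0 (corrected 2 and 0). *Prkdc*, the catalytic subunit of DNA-dependent protein kinase, had 384 and 391 normalized counts in control and 1112 and 1062 in the libraries labelled cKO, a log2 fold change of 1.49 (adjusted p = 0.000533, limma; corrected 0.75, adjusted p = 0.00653). *Atm* was at 1.25 (adjusted p = 0.000689; corrected 0.42, adjusted p = 0.0303), and at 0.33 (adjusted p = 0.0609) with GC content over all transcripts.

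Ubiquitin ligases and proteases were lower for 3 and higher for 5 of 10 (corrected 2 and 3). *Mdm4*, the partner of MDM2 that blocks p53 activity, had 2294 and 2032 normalized counts in control and 4508 and 4169.9 in the libraries labelled cKO, a log2 fold change of 1.01 (adjusted p = 0.00116, limma; corrected 0.27, adjusted p = 0.0984). The ligase gene *Rchy1* was at 0.95 (adjusted p = 0.00241; corrected 0.58). *Stub1*, which encodes the ligase CHIP, was lower at -0.74 (adjusted p = 0.0105) and higher at 0.68 (adjusted p = 0.017) after the correction, and *Usp10*, a protease that stabilises p53, was at -0.42 (adjusted p = 0.0156; corrected 0.10). Cofactors were lower for 3 and higher for 4 of 12, near the shares of all genes (corrected 0 and 4). *Sirt1*, a deacetylase of p53, was at 1.23 (adjusted p = 0.00075; corrected 0.56), and the acetyltransferase gene *Kat2b* at 1.04 (adjusted p = 0.0022; corrected 0.64). *Ppp1r13l*, which encodes the p53 inhibitor iASPP, was at -1.74 (adjusted p = 0.00281) with 62.5% GC and at -0.06 (adjusted p = 0.874) after the correction, and *Daxx* went from -0.82 (adjusted p = 0.0046) to -0.02. Of 4 stabilisers tested, 1 was lower and 0 were higher (corrected 2 and 0). The 1 was *Rpl11*, a ribosomal protein that can hold MDM2 off p53, at -0.86 (adjusted p = 0.0322; corrected -0.50, adjusted p = 0.177). Of the genes named for a call after the correction, *Bax*, *Siva1*, *Slc19a2*, *Atm*, *Rchy1*, *Kat2b* and *Sirt1* were not called with GC content over all transcripts. *Trp63* and *Trp73*, the relatives of p53, were not analysed here.

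A few genes had patterns most like that of *Trp53* over the 4 libraries, by the Euclidean distance between log2 values centred on each gene's mean. *Sec61g*, a subunit of the translocon, lay nearest at 0.0341, followed by *Ccdc124* at 0.0562 and *Cdc42ep1* at 0.0605, among 9982 genes compared. *Sec61g* had 782 and 803 normalized counts in control and 230 and 272 in the libraries labelled cKO. Within a distance of 0.25 lay 89 genes.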

How the data were processed

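Colonic crypts were released by EDTA and scraping, and the RNA was sequenced. Alignment by the authors was with STAR, for which their methods give version 2.2.1, against the GRCm38 genome, and they normalized gene counts with DESeq2 (version 1.40.1). The labels and the methods name different library kits, and the counter and strand setting are not given in the sources used here. The deposited signal is the normalized count of each library, and whole reads were recovered for 100% of values (tolerance 0.01 reads). The authors' own log2 fold change, score (Wald statistic) and p-value columns were also deposited and were not used.

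Here, log2(normalized count + 1) was tested with limma 3.58.1 (R 4.3.3) with a trend, on 13983 genes with a mean of at least 10, with Benjamini-Hochberg adjustment over all of them and a threshold of 0.05. limma draws each gene's variance towards a trend over all tested genes. The p-values therefore rest on the spread among 2 mice a group and on that of other genes. Fold changes understate low genes because of the pseudocount. DESeq2 1.42.0 and edgeR 4.0.16 on recovered reads, other scalings and pseudocounts, filters, a replicate block, leave-one-out and a loess correction (span 0.3) for GC content and exon length were alternatives. GENCODE models matched 16003 of 16015 genes. The correction was planned without a GC measure. GC content of the longest transcript and of all transcripts were both computed, and the former was made the one shown after both results had been seen, so both are given where a call on one of the 9 genes differs.

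The 9 genes, the lists and the tests were chosen with earlier results of these data known. Named genes are the 9, a fixed set (*Bax*, *Bbc3*, *Pmaip1*, *Fas*, *Mdm4*, *Ppm1d*, *Gdf15*, *Trp63*, *Trp73*), the 3 nearest to *Trp53*, and in each list the 2 lowest and 2 highest by fold change with an adjusted p under 0.05, a mean of at least 100 and no overlap.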

Additional observations from a re-analysis of the deposited data

How the results depend on the processing

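Across 17 alternatives, *Trp53* and *Aen* kept their direction and their call, and *Trp53* ranged from -1.87 to -1.21. The 4 corrected fits (planned, quadratic loess, GC content over all transcripts, and replicate block with the planned correction) reversed 4 of the 9 genes. *Mdm2* was at -0.25, -0.26, -0.23 and -0.25 in them, *Ccng1* at -0.39, -0.40, -0.62 and -0.39, *Trp53inp1* at -0.15, -0.15, -0.25 and -0.15, and *Zmat3* at -0.0739, -0.0875, -0.0854 and -0.0739. The quadratic loess and the all-transcript GC content were added after seeing the data. Library total scaling, which moves the median of all genes from -0.04 to -0.26, gave -0.0385 for *Mdm2* and -0.0041 for *Zmat3*, and left *Ccng1* at 0.31 (adjusted p = 0.0576). The cause of these changes was not tested.

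Of the 9 genes, 4, 5, 5 and 3 were lower and 0 were higher in the 4 corrected fits, in the order given above. *Ccng1* was called lower in the quadratic fit (adjusted p = 0.0499, limma) as with GC content over all transcripts. With library total scaling 5 were lower and 1 was higher. The other targets had 16, 17, 14 and 16 genes lower and 9, 9, 7 and 8 higher in those 4 fits, and 31 lower and 4 higher with library total scaling. Of all genes, 14.9% to 17.8% were lower and 15.6% to 18.4% higher in the 4 fits, and 34.9% were lower and 22.1% higher with library total scaling. The regulators had 4, 4, 5 and 3 lower and 9, 8, 4 and 7 higher in the 4 fits, and 12 lower and 9 higher with library total scaling.

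Leaving out each mouse, where the lone sample of a group is assumed to vary like the others, gave 3 to 5 of the 9 genes lower and 0 to 2 higher, 19 to 21 targets lower and 3 to 6 higher, and 2 to 5 regulators lower and 9 to 10 higher, while 15.8% to 20.4% of all genes were lower and 19.0% to 22.6% higher. Mice with the same number shared only that number (correlation of their deviations -0.091 across 13983 genes). The replicate block alone left 5 of the 9 genes lower and 2 higher, with 29 targets lower and 8 higher and 7 regulators lower and 13 higher, beside 27.1% of all genes lower and 27.9% higher. With the correction it left 3 of the 9 lower, since *Phlda3* was at -0.95 (adjusted p = 0.0517).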
